A study of Homo sapiens with 21 samples.

Results

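FAM155A, EDIL3 and RP11-115J23.1 are long genes whose transcripts carried many HNRNPK binding sites, nearly all of them in introns. They were selected on their number of clusters, as the genes with more than 280 in the parental cytoplasmic library, apart from EXT1, which had 410. FAM155A had 320, RP11-115J23.1 318 and EDIL3 283, while PTPRM with 279 and DPYD with 269 fell just short. These counts chose the genes and are a description only. Together the 3 genes held 921 of the 201726 clusters of that library and 3216 of the 778762 clusters of all 4 libraries, which named 18322 genes.

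Sites were mapped by PAR-CLIP, in which 4-thiouridine in RNA is crosslinked to a protein by ultraviolet light and is then read as C in place of T, so that a cluster is a short stretch of overlapping reads with such T-to-C changes. MDA-MB-231 cells, a human triple-negative breast cancer line in long use, were either parental or KRT19 KO, in which CRISPR/Cas9 had disrupted the gene of keratin 19. All cells received 4-thiouridine, and HNRNPK was immunoprecipitated from the cytoplasmic and the nuclear fraction of each line, with 1 library per condition. Values for the 4 libraries are given in the order parental cytoplasm, KRT19 KO cytoplasm, parental nucleus, KRT19 KO nucleus. In this order the libraries held 201726, 177530, 200387 and 199119 clusters with 5551612, 6216226, 3537577 and 3252800 reads. No difference between conditions therefore has a replicate check, and no p-value was computed. The 95% intervals given count every read as independent and cover no difference between replicates. Unique reads were 30.9%, 45.6%, 20.0% and 19.0% of the reads, so the intervals are too narrow where reads are copies of a molecule. A cluster needs both RNA and binding, so less RNA and less binding per RNA cannot be told apart from clusters alone. The RNA-seq samples of the series, which measure RNA, were not analysed here. Of the genes that mark the line, the mesenchymal genes VIM, CD44 and AXL had clusters in every library, with 9, 10, 8 and 6 clusters for VIM, while the epithelial gene CDH1 had 0, 0, 0 and 1 and the progesterone receptor gene PGR had none. The other epithelial and hormone receptor genes of the list were not free of clusters, with 3, 1, 3 and 0 for EPCAM and 10, 2, 9 and 6 for ESR1, the estrogen receptor gene, so that ESR1 had more clusters than VIM in both parental libraries.

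HNRNPK is a KH-domain protein that shuttles between nucleus and cytoplasm and binds C-rich single-stranded RNA, in introns of nuclear pre-mRNA as well as in mature mRNA. FAM155A, now named NALF1, encodes an auxiliary subunit of the NALCN sodium leak channel. EDIL3 encodes a secreted extracellular matrix protein, made by endothelial cells among others, that binds integrins. RP11-115J23.1 is a long noncoding RNA gene that matches LINC02742 of GENCODE by position.

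On GRCh37, FAM155A spans 704 kb of the minus strand (chr13:107815858-108519844), with 3 exons and a first intron of 655 kb. EDIL3 spans 444 kb of the minus strand (chr5:83236373-83680698), with 11 exons and a longest intron of 130 kb. RP11-115J23.1 spans 362 kb of the plus strand (chr11:28724154-29085869), with 4 exons and a longest intron of 296 kb. The deposited sequences of all 3216 clusters were equal to GRCh37 at their positions. The following intronic sites were found in all 4 libraries and had the largest sum of scaled reads over the libraries in each gene. They are shown because they are the sites that recurred in both fractions and both cell lines. Sequences are those of the RNA strand written with T, and capitals mark runs of at least 2 C.
FAM155A intron, chr13:108199216-108199245, minus strand: tattctCCCatatttCCtCCaataCCataa
FAM155A intron, chr13:108289631-108289660, minus strand: taaaattCCCCaacaacttaacaaataaag
EDIL3 intron, chr5:83382878-83382907, minus strand: tatttCCCaaCCtctcattCCCaacaatag
EDIL3 intron, chr5:83582920-83582949, minus strand: acaatattatataaataatcaCCaaCCCag
RP11-115J23.1 intron, chr11:28928697-28928726, plus strand: attCCaatcatctaCCCCacttacttaaaa
RP11-115J23.1 intron, chr11:28824761-28824790, plus strand: ttcaattCCaaaaacacttttacattttag

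The RNA was cut with RNase T1, which cleaves after G, and G made up 5.22% of the bases in the parental cytoplasmic clusters of the 3 genes. The FAM155A site at chr13:108199216-108199245 lay 321 kb from the gene start and held 190, 130, 120 and 46 reads in the 4 libraries. The EDIL3 site at chr5:83382878-83382907 held 117, 51, 209 and 91 reads, so that its highest count was nuclear. The RP11-115J23.1 site at chr11:28824761-28824790 held 203, 113, 143 and 72 reads. Of the reads at this last site, 46.3%, 49.6%, 49.7% and 48.6% carried a T-to-C change.

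The number of clusters in FAM155A was 320 in the parental cytoplasmic, 171 in the KRT19 KO cytoplasmic, 306 in the parental nuclear and 238 in the KRT19 KO nuclear library. EDIL3 had 283, 146, 252 and 141 clusters in the same order. RP11-115J23.1 had 318, 293, 376 and 372. The KRT19 KO libraries thus held fewer clusters than the parental libraries of the same fraction in each gene, by least in RP11-115J23.1. The libraries differed in size, and as a share of all clusters of the library RP11-115J23.1 was higher in KRT19 KO cytoplasm, at 0.165% against 0.158% in the parental library. FAM155A had 7038, 2520, 6498 and 3804 reads in these clusters, or 1268, 405, 1837 and 1169 RPM (reads scaled to 1000000 reads in all clusters of the library). EDIL3 had 12411, 6460, 5604 and 2261 reads, or 2236, 1039, 1584 and 695 RPM. RP11-115J23.1 had 9273, 7296, 10300 and 9118 reads, or 1670, 1174, 2912 and 2803 RPM. The plot of clusters and reads by library shows that EDIL3 was the only one of the 3 with more RPM in the cytoplasm than in the nucleus, in both cell lines. This order depended on the scale, since with intronic clusters scaled to intronic reads the ratio of nucleus to cytoplasm was also below 1 for FAM155A in parental cells (0.922) and for RP11-115J23.1 in KRT19 KO cells (0.928). Without the largest intronic cluster of each library, which in parental cytoplasm held 13.3% of the intronic reads, that of RP11-115J23.1 in parental cells was below 1 as well (0.954).

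**Figure D1:**
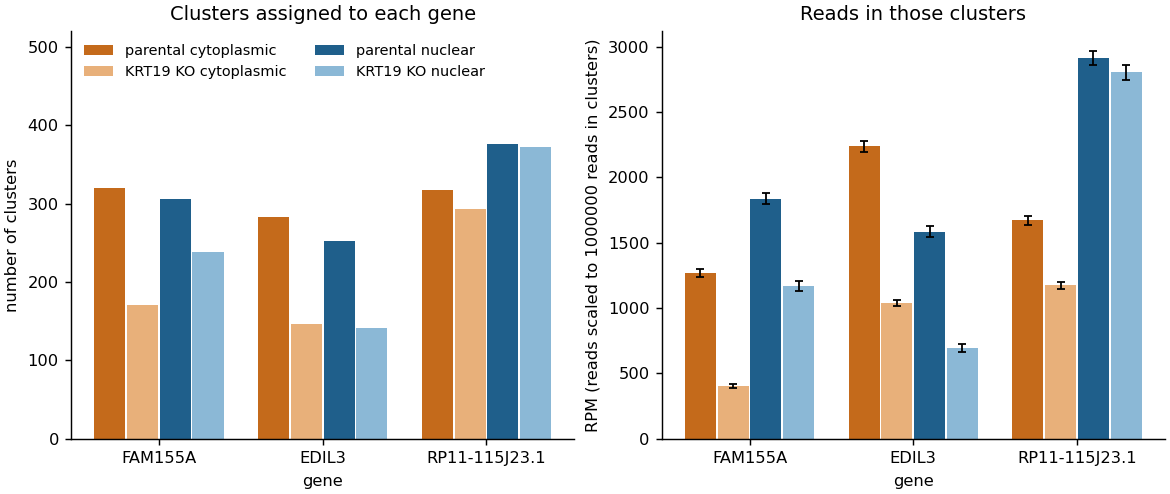
Number of clusters (left) and RPM (right) of each gene in the 4 libraries, 1 library per bar, with 95% Poisson intervals for the reads. Each KRT19 KO bar is below the parental bar of the same fraction, and the nuclear pair of RP11-115J23.1, 2912 against 2803 RPM, is the closest.

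In the cytoplasmic fraction, the ratio of KRT19 KO to parental RPM was 0.320 (95% interval 0.305 to 0.335) for FAM155A, 0.465 (0.451 to 0.479) for EDIL3 and 0.703 (0.681 to 0.725) for RP11-115J23.1. FAM155A and EDIL3 were thus past 2-fold lower in KRT19 KO cells, as were 20.0% of the 7783 genes with a sum of 100 or more reads over both cytoplasmic libraries, while 19.4% were past 2-fold higher. Since the genes were chosen for many clusters in the parental cytoplasmic library, nothing is read from these counts. The nuclear libraries took no part in the choice, but the parental one shares its cell line with the library that did. The nuclear ratios are therefore a description as well. In the nuclear fraction the ratio was 0.637 (0.612 to 0.663) for FAM155A, 0.439 (0.418 to 0.461) for EDIL3 and 0.963 (0.936 to 0.990) for RP11-115J23.1. Only EDIL3 was past 2-fold lower there, beside 15.5% of 7349 genes, with 11.1% past 2-fold higher. Of the 6370 genes with 100 or more reads in each fraction, 38.6% had ratios on opposite sides of 1 in the 2 fractions, and since the cytoplasmic ratio shares the library that chose the 3 genes, nothing is read from their being below 1 in both. The median ratio over all genes tested was 0.956 in the cytoplasmic and 0.929 in the nuclear fraction. Size factors from the median of ratios moved all log2 ratios up by 0.22 in the cytoplasm and 0.11 in the nucleus, and turned the cytoplasmic split of 1560 lower and 1513 higher genes into 1191 and 1906, and the nuclear split of 1136 and 813 into 988 and 968. With them the ratio of EDIL3 was 0.543 in the cytoplasm, no longer past 2-fold, and that of RP11-115J23.1 was 1.04 in the nucleus. The neighbours in the order of cluster numbers had cytoplasmic ratios of 0.505 (EXT1) and 0.421 (PTPRM) and nuclear ratios of 0.870 and 0.655.

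The libraries differed in makeup, and this moved with the ratios. Intronic reads were 43.7% of the parental cytoplasmic but 24.1% of the KRT19 KO cytoplasmic library, and 69.3% and 62.2% of the nuclear ones, while 3'UTR reads were 31.6%, 47.4%, 5.35% and 5.43%. How much nuclear RNA the cytoplasmic fractions held was not tested. Scaled to intronic reads alone, the cytoplasmic ratio of intronic clusters was 0.568 for FAM155A, 0.461 for EDIL3 and 1.27 for RP11-115J23.1, which thus turned from lower to higher in KRT19 KO cells. One intronic cluster of another gene held 323758 reads, 13.3% of the intronic reads of the parental cytoplasmic library, and without the largest intronic cluster of each library these ratios were 0.494, 0.401 and 1.11. The cluster of 323758 reads was found in no other library, and whether it is an artifact of mapping was not tested. In the nucleus the intronic ratios were 0.708, 0.467 and 1.07. In the nuclear fraction EDIL3 and FAM155A were therefore lower in KRT19 KO cells on either scale, and the direction for RP11-115J23.1 depended on the scale. The cytoplasmic ratios share the library that chose the genes and the nuclear ones its parental line, so all are a description only.

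EDIL3 differed from the other 2 genes in carrying many reads in its 3'UTR. It had 10, 14, 5 and 4 clusters there in the 4 libraries, with 6558, 4780, 431 and 255 reads. These were 52.8% (52.0 to 53.7%) and 74.0% (72.9 to 75.1%) of the reads of the gene in the cytoplasm, against 7.69% (7.02 to 8.42%) and 11.3% (10.0 to 12.7%) in the nucleus. FAM155A had 1, 3, 0 and 1 clusters in its 3'UTR, and RP11-115J23.1 had 1, 2, 0 and 0 in its exons. The 3 sites of the EDIL3 3'UTR with the most reads are shown because they carried most of its cytoplasmic signal, with 97.2% and 80.0% of the 3'UTR reads in the parental and KRT19 KO cytoplasmic libraries. Capitals again mark runs of at least 2 C.
EDIL3 3'UTR, chr5:83237476-83237505, minus strand: atctttcaaaaacaaaattactatttCCtc
EDIL3 3'UTR, chr5:83238297-83238326, minus strand: catatCCttatatttactttaaaaaatcgg
EDIL3 3'UTR, chr5:83238665-83238694, minus strand: taattctcattttactttcattatttctaa

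The first of these sites held 3153, 1832 and 153 reads and had no cluster in the KRT19 KO nuclear library. The second held 2223, 1216, 65 and 141 reads and was the only 3'UTR site of the 3 genes found in all 4 libraries. The third held 1001 and 775 reads in the cytoplasmic libraries and had no cluster in the nuclear ones. These windows hold few or no runs of C and none holds the C-rich motif described below. Their T-to-C shares in the parental cytoplasmic library were 36.8%, 50.7% and 35.5%. From parental to KRT19 KO cytoplasm the RPM ratio was 0.651 (0.627 to 0.676) for the 3'UTR reads of EDIL3 and 0.254 (0.240 to 0.268) for its intronic reads. In the nucleus the ratios were 0.643 (0.549 to 0.753) for the 3'UTR and 0.419 (0.397 to 0.441) for introns. Scaled to the reads of the same class, the cytoplasmic ratios were 0.434 (0.418 to 0.451) for the 3'UTR and 0.461 (0.436 to 0.487) for introns, with overlapping intervals. Without the largest intronic cluster of each library the intronic ratio was 0.401, so that the order of the classes depended on that cluster. The nuclear ratios on that scale were 0.633 and 0.467.

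Across each gene the clusters followed the long introns. In FAM155A the first intron held 319 of 320, 168 of 171, 303 of 306 and 237 of 238 clusters, and the second intron of 39.8 kb held 0, 0, 3 and 0. The second intron of RP11-115J23.1 held 292, 270, 340 and 343 of its clusters. In EDIL3, 9, 8, 8 and 8 of the 10 introns had a cluster, and the first intron alone had 102, 48, 85 and 48. No cluster named for these genes lay outside the annotated span or on the other strand. Within the span of each gene, at most 3 clusters of any library lay on the opposite strand. The overlapping lncRNA genes NALF1-IT1 and EDIL3-DT, under these GENCODE names, were the name of no cluster. The deposit uses older names such as FAM155A, so nothing is read from this. Within the span and on the strand of FAM155A, 0, 1, 1 and 1 clusters of the 4 libraries had another name. MIR1267 named the 1 of KRT19 KO cytoplasm.

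Per length the 3 genes were among the densest of the long genes. In the parental cytoplasmic library, where the choice was made, FAM155A had 45.5 clusters per 100 kb, EDIL3 63.7 and RP11-115J23.1 87.9, against a median of 6.69 over 1259 genes of at least 200 kb with a cluster in that library. Ranks in the other libraries are among those of these genes that had a cluster there too. In the parental nuclear library they had 43.5, 56.7 and 104 per 100 kb against a median of 8.01, and ranked 38, 13 and 2 of 1170 genes. In the KRT19 KO nuclear library they ranked 59, 72 and 2 of 1168, with 33.8, 31.7 and 103 clusters per 100 kb. In the KRT19 KO cytoplasmic library they ranked 89, 32 and 2 of 1073. RP11-115J23.1 thus stayed second to EXT1 in every library, and between the nuclear libraries FAM155A and EDIL3 ranked lower in KRT19 KO cells. Since a library of the parental line chose the genes, this order of the lines is a description only. In the parental cytoplasmic library, whose counts chose the genes, the ranks were 30, 8 and 2 of 1259.

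**Figure D2:**
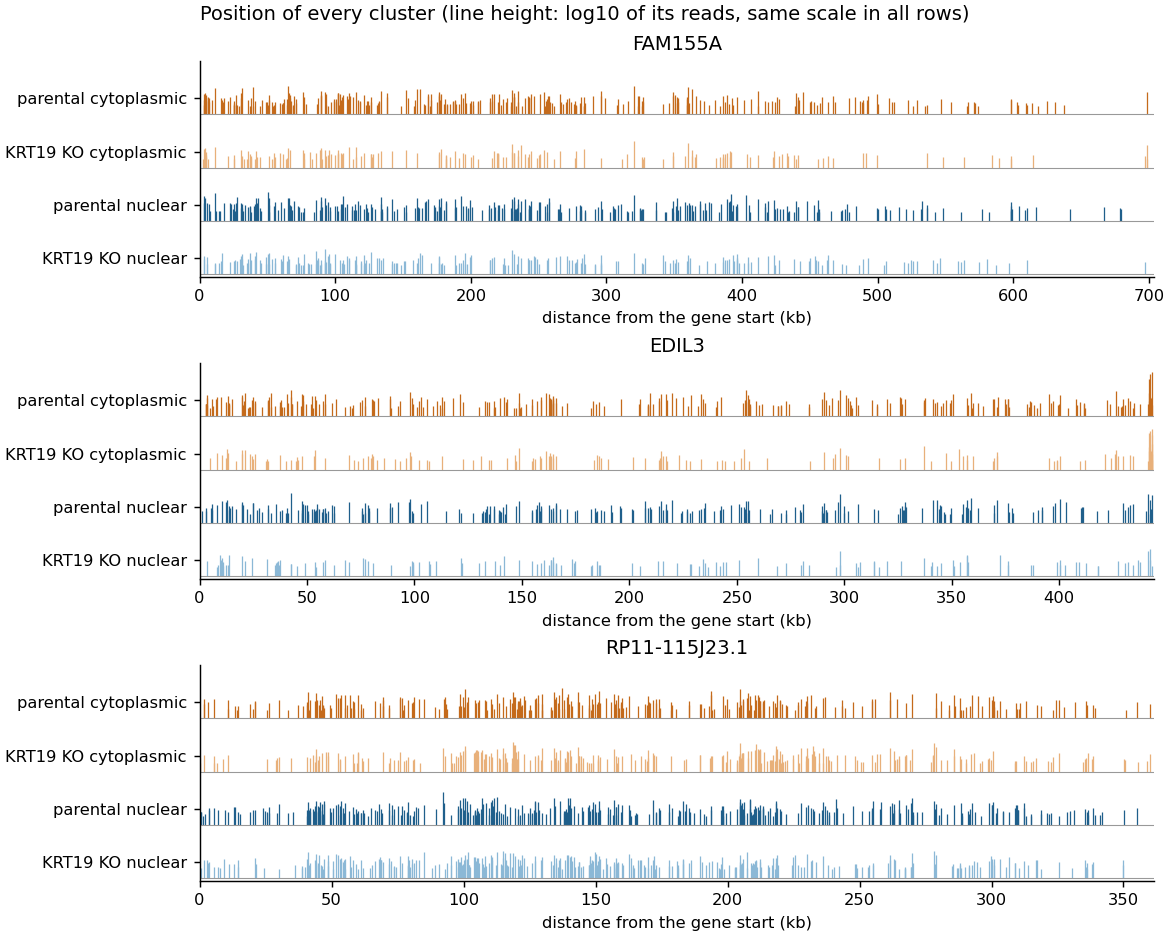
Position of every cluster along FAM155A, EDIL3 and RP11-115J23.1 in the 4 libraries, as distance from the gene start in kb, with the height of each line giving the log10 of its reads on one scale. Clusters of FAM155A thin out beyond 600 kb, and those of EDIL3 end in a tall group at the 3'UTR in the cytoplasmic libraries.

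The spread along the gene differed between the 3. Upstream of the midpoint of FAM155A lay 73.8%, 73.1%, 69.6% and 73.5% of its clusters in the 4 libraries. The median over long genes with at least 50 clusters was 51.2%, 50%, 52.6% and 52.3%, and FAM155A ranked 29 of 352, 16 of 205, 42 of 352 and 27 of 304. Cut into 10 equal segments from its start, FAM155A had 64, 52, 42, 52, 26, 29, 26, 12, 15 and 2 clusters in the parental cytoplasmic library. Its longest stretch without a cluster was 61.1, 82.8, 25.1 and 87.7 kb in the 4 libraries, each time beyond 600 kb from the start. EDIL3 had 55.8%, 55.5%, 57.5% and 54.6% of its clusters upstream of its midpoint. RP11-115J23.1 had 62.6%, 51.5%, 57.7% and 63.7%, with its fewest clusters in the first and the last segments. Gene spans are those of GENCODE, and which transcript of each gene the cells make was not tested.

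**Figure D3:**
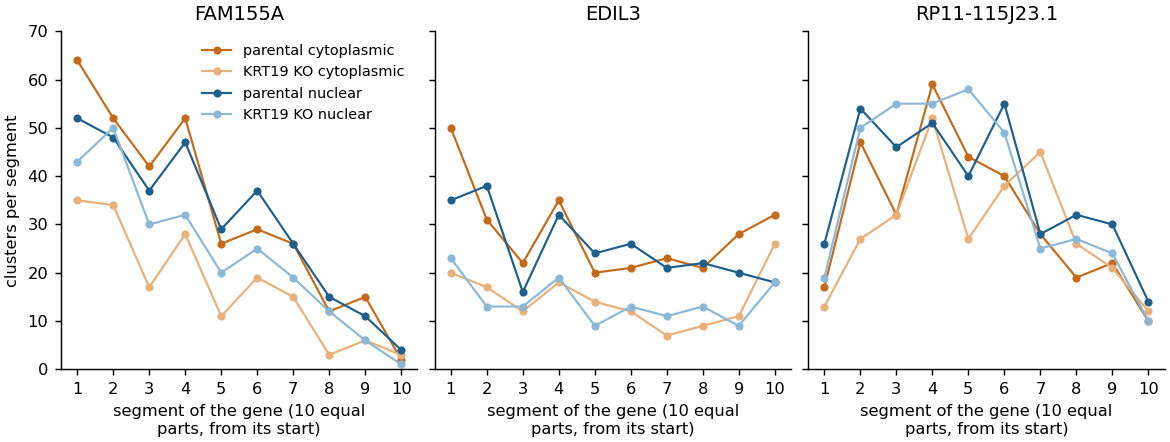
Clusters in each of 10 equal segments of the 3 genes, from the gene start, with 1 line per library. In FAM155A the number falls from 64 in the first to 2 in the last segment of the parental cytoplasmic library. From first to last segment it also falls in KRT19 KO cytoplasm (35 to 3), parental nucleus (52 to 4) and KRT19 KO nucleus (43 to 1). The fall is not even, with 50 in the second segment of the KRT19 KO nucleus. RP11-115J23.1 has its fewest clusters in the first and the last segments.

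Neighbouring clusters of the parental cytoplasmic library lay a median of 1246 nt apart in FAM155A (95% interval from order statistics 1046 to 1389), 1000.5 nt in EDIL3 (833 to 1162) and 619 nt in RP11-115J23.1 (482 to 709). The median over long genes with at least 50 clusters was 2242 nt. Of the distances in RP11-115J23.1, 22.1% were under 200 nt, against 12.2% in FAM155A and 14.9% in EDIL3. In the KRT19 KO cytoplasmic library the medians were 1975.5, 1996 and 670.5 nt. In the nuclear libraries they were 1264, 941 and 594 nt in parental and 1529, 2038.5 and 502 nt in KRT19 KO cells. Within a fixed span the distance follows from the number of clusters, which chose the genes in the parental cytoplasmic library, so these values are not separate from the cluster numbers. The coefficient of variation of the distances was 1.91, 1.91, 1.39 and 2.14 in FAM155A over the 4 libraries, against medians over long genes of 1.18 and 1.26 in the cytoplasmic libraries. In EDIL3 it was between 1.02 and 1.26 and in RP11-115J23.1 between 1.10 and 1.41.

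The densest 10 kb of RP11-115J23.1 in the parental nuclear library (chr11:28927842-28937841) held 31 clusters there, and 24, 20 and 24 in the others. In EDIL3 the densest 10 kb of the parental nuclear library (chr5:83623303-83633302) held 19 clusters there but 10, 3 and 3 in the others, while the densest 10 kb of its parental cytoplasmic library (chr5:83514674-83524673) held 15 there and 10, 11 and 9 in the others. Each window was picked as the densest of 1 library, so lower counts in the others can follow from that choice. EDIL3 also had fewer clusters in all in the KRT19 KO libraries, 146 and 141. Over bins of 20 kb, cluster numbers of pairs of libraries had Pearson's r between 0.787 and 0.844 in FAM155A (36 bins), between 0.290 and 0.590 in EDIL3 (23 bins) and between 0.780 and 0.901 in RP11-115J23.1 (19 bins). These bins share gene, sequence and libraries, and the values are descriptions.

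Part of the sites recurred between libraries. A cluster was called found in another library when it shared 1 nt or more of the same strand with a cluster of any of the other 3. In the parental cytoplasmic library this held for 54.1% of FAM155A clusters (48.6 to 59.4%), 48.8% of EDIL3 clusters (43.0 to 54.6%) and 67.6% of RP11-115J23.1 clusters (62.3 to 72.5%), beside 44.5% of all intronic clusters. In the KRT19 KO cytoplasmic library it held for 73.1%, 63.0% and 67.6%, beside 54.2%. In the nuclear libraries it held for 51.3%, 48.8% and 59.0% in parental cells, beside 39.2%, and for 57.1%, 56.7% and 59.1% in KRT19 KO cells, beside 39.6%. All these shares involve the parental cytoplasmic library, whose clusters chose the genes. Of the 125 FAM155A clusters of KRT19 KO cytoplasm that were found again, 81 were found in that library. Nothing is therefore read from shares of the 3 genes that differ from those of intronic clusters in general. Reads per cluster moved with these shares, since clusters with more reads were found again more often. Among parental cytoplasmic clusters of 20 to 49 reads the share was 75% in FAM155A, 75% in EDIL3 and 79.8% in RP11-115J23.1, against 77.3% of intronic clusters of all other genes. Among those of 10 to 19 reads it was 47.8% (37.8 to 58.0%), 43.0% (33.1 to 53.6%) and 63.9% (53.1 to 73.4%), against 51.1%. Among those of 5 to 9 reads it was 34.2% (26.2 to 43.2%), 15.7% (9.6 to 24.7%) and 39.5% (29.9 to 50.1%), against 25.6%. In the lowest class of this library the interval of EDIL3 thus lay below the share of the other intronic clusters and those of FAM155A and RP11-115J23.1 above it. This order did not hold across libraries, since at 5 to 9 reads EDIL3 had 47.2% against 36.6% in KRT19 KO cytoplasm, 26.8% against 23.3% in the parental nucleus and 54% (40.4 to 67.0%) against 24.7% in the KRT19 KO nucleus, and RP11-115J23.1 had 35.2% against 36.6% in KRT19 KO cytoplasm. FAM155A was above in each of these libraries, with 58.9% (47.4 to 69.5%), 30% (22.2 to 39.1%) and 37.4% (28.1 to 47.6%). RP11-115J23.1 was above in both nuclei, with 38.1% in parental and 33.3% in KRT19 KO cells.

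**Figure D4:**
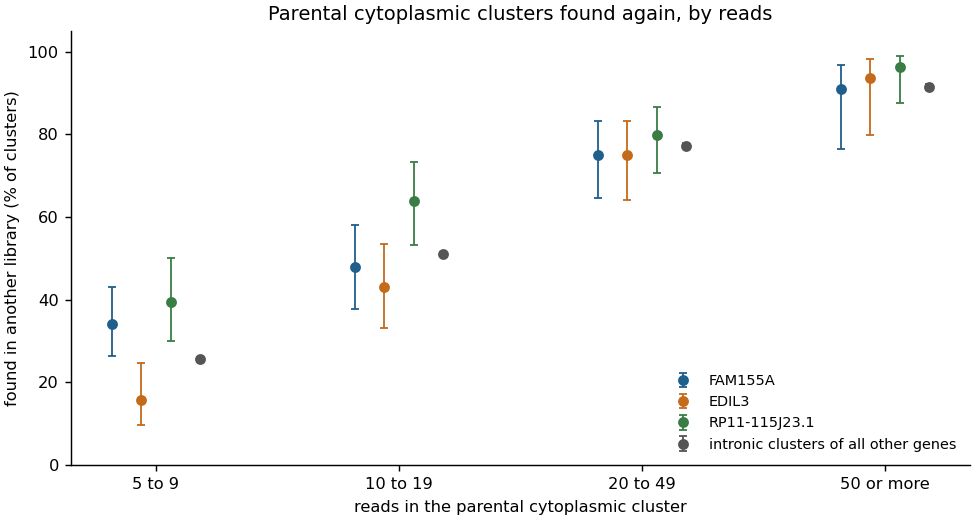
Share of parental cytoplasmic clusters found in at least 1 other library, by the number of reads in the cluster, for the 3 genes and for intronic clusters of all other genes, with 95% Wilson intervals. All 4 groups rise with the number of reads, from between 15.7% and 39.5% at 5 to 9 reads to over 90% at 50 or more.

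Sites found in all 4 libraries numbered 26 in FAM155A, 13 in EDIL3 and 42 in RP11-115J23.1. They were 8.13%, 4.59% and 13.2% of the parental cytoplasmic clusters of these genes, beside 5.30% of all intronic clusters and 19.8% of those of EXT1, so that EDIL3 was not above the share of all intronic clusters. That library chose the genes, and these shares were not matched for reads, so they are a description only. Among all intronic clusters of that library the share was 0.95% at 5 to 9 reads and 31.3% at 50 or more. The sites found in all 4 libraries held 19.9%, 22.3% and 23.6% of the parental cytoplasmic reads of the 3 genes. The value of EDIL3 rested on its 1 site in the 3'UTR, without which the other 12 held 4.40% of the reads, while none of the sites of the other 2 genes was in a 3'UTR. In FAM155A 24 of the 26 lay upstream of the midpoint and the last lay 411 kb from the start. In EDIL3 8 of 13 and in RP11-115J23.1 28 of 42 lay upstream of the midpoint.

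The C-rich motif searched was a U or A, then a U, C or A, then CCC, on the RNA strand only. It was held by 22.9% (20.3 to 25.7%), 21.1% (18.1 to 24.6%), 23.3% (20.7 to 26.2%) and 25% (22.1 to 28.3%) of the clusters of the 3 genes in the 4 libraries. Among all intronic clusters the shares were 30.6%, 31.4%, 32.9% and 33.2%, above the intervals of the 3 genes together in each library. The difference did not hold for every gene, since EDIL3 in the KRT19 KO nuclear library had 31.9% (24.8 to 40.0%). A lower share was not particular to the 3 genes, since EXT1 had 27.1%, 28.1%, 24.7% and 27.7%. Its intervals lay below the share of all intronic clusters in the nuclear libraries only. PTPRM had 28.0%, 33.3%, 30.7% and 34.5%, and the median over long genes with at least 50 clusters was 29.2%, 29.9%, 32.0% and 32.3%. Windows of the same length 100 nt to either side of the clusters held it in 8.58%, 8.52%, 7.60% and 7.79% of cases in the 3 genes and in 10.0%, 9.81%, 11% and 9.48% around all intronic clusters. Clusters of the 3 genes thus held the motif more often than their own surroundings in every library. The gene sequences were poorer in C than those of most long genes, with 18.2% C in FAM155A, 17.5% in EDIL3 and 17.9% in RP11-115J23.1 against a median of 18.9%. They held 4.17, 3.91 and 4.24 motifs per kb against a median of 4.61. A motif match is a description of the sequence and not evidence of contact.

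The motif share rose with the number of libraries that held a cluster. In the 3 genes it was 14.7% (11.5 to 18.5%) of the 395 parental cytoplasmic clusters found in no other library, 22.6% (18.1 to 27.8%) of the 279 found in 1 other, 34.3% (27.5 to 41.8%) of the 166 found in 2 others and 40.7% (30.7 to 51.6%) of the 81 found in all 4. Among all intronic clusters it rose in the same way from 23.5% to 33.7%, 44.1% and 54.8%. In EDIL3 it went from 13.8% to 61.5% and in FAM155A from 17.0% to 50%, while in RP11-115J23.1 it was 12.6%, 18.1%, 35.4% and 28.6%. The median number of reads in the clusters of the 3 genes moved along, from 9 to 18, 27 and 38, and its part in the rise was not tested.

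**Figure D5:**
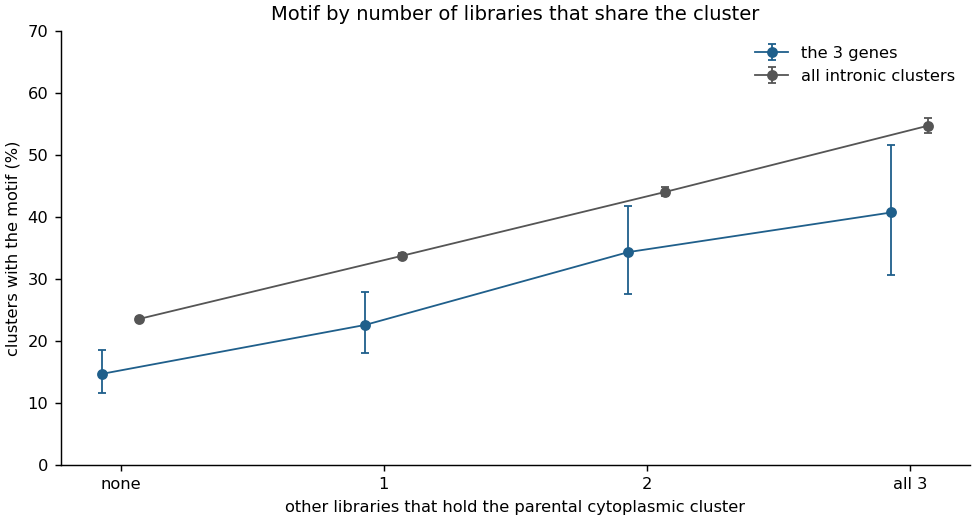
Share of parental cytoplasmic clusters that hold the motif, by the number of other libraries in which the cluster was found, with 95% Wilson intervals, for the 3 genes and for all intronic clusters. Both rise at each step, the 3 genes from 14.7% to 40.7% and all intronic clusters from 23.5% to 54.8%.

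A T-to-C change was carried by 58.5%, 58.3%, 67.1% and 71.9% of the reads in the 3 genes in the 4 libraries. Over all intronic clusters the shares were 74.2%, 68.0%, 73.8% and 78.4%, and 70.2% in the parental cytoplasmic library without its largest intronic cluster. In EDIL3 the share was 52.4%, 51.2%, 66.7% and 76.5%, and the 3'UTR clusters, at 42.0% in the parental cytoplasmic library, were below its introns at 64.0%. FAM155A had 64.3%, 65.9%, 69.3% and 75.6%, and RP11-115J23.1 62.4%, 62.0%, 66.0% and 69.2%. In intronic clusters alone the 3 genes had 63.5%, 64.3%, 67.8% and 72.1%, still below all intronic clusters in each library. This was not particular to them, since introns of EXT1 had 62.0%, 62.9%, 61.6% and 61.9%. Those of PTPRM had 68.4%, 66.8%, 71.5% and 78.7%. The comparison was not matched for reads per cluster. The median share per cluster was 75% and 72.4% in the 3 genes against 100% and 83.3% over all intronic clusters of the parental and KRT19 KO cytoplasmic libraries, and 100% in both groups in each nuclear library.

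The partners known for the 2 proteins were also examined, though their cluster numbers cannot be set against those of genes chosen for many clusters. Of the 4 genes of the NALCN channel complex other than FAM155A (NALCN, the channel pore; UNC79 and UNC80, its scaffold subunits; and FAM155B, the paralog of FAM155A), 2, 3, 2 and 2 had a cluster in the 4 libraries. They held 10, 10, 14 and 16 clusters with 68, 82, 183 and 177 reads, and FAM155B had none. The EDIL3 relative MFGE8 and the integrin genes ITGAV, ITGB1, ITGB3 and ITGB5 all had clusters in every library, 94, 52, 81 and 74 in all. Past 2-fold lower in KRT19 KO cytoplasm were ITGB1, the beta 1 integrin subunit, with 0.245 (0.219 to 0.274), ITGB5, the beta 5 subunit, with 0.372 (0.288 to 0.476), and MFGE8, a secreted integrin ligand, with 0.123 (0.0759 to 0.191). These were 3 of the 4 genes of this list with 100 or more reads there, beside 20.0% of all genes tested. ITGAV, the alpha V subunit, had a ratio of 0.604 (0.545 to 0.668), and ITGB3 had too few reads. In the nucleus ITGB1 had 0.659, ITGB5 0.505 and ITGAV 0.90, none past 2-fold, and MFGE8, with 106 reads in all, was past 2-fold higher at 3.18, as were 11.1% of all genes tested. NALCN (1.09 and 0.816) and UNC79 in the nucleus (1.34) were not past 2-fold.

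Among 519 genes with at least 200 clusters over the libraries, those whose RPM were most like each gene over the 4 libraries were named by the smallest Euclidean distance of log2 values centred on the gene. For FAM155A they were PAN3, SMURF1 and EFNA5, with distances of 0.13, 0.14 and 0.16 against a median of 1.06. For RP11-115J23.1 they were IL1RAPL1, SUPT3H and TENM3, with 0.08, 0.11 and 0.12 against a median of 0.71. For EDIL3 they were GULP1, GPR126 and TNPO1, at larger distances of 0.42, 0.50 and 0.55 against a median of 1.74. Each likeness rests on 4 libraries only.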

How the data were processed

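PAR-CLIP clusters of HNRNPK in MDA-MB-231 cells came from 4 libraries, 1 per condition, and 17 RNA-seq samples were not analysed here. Per the methods, the authors collapsed reads before removing adapters and molecular identifiers, aligned them to hg19 and called clusters with PARalyzer in PARpipe (Bcl2fastq 2.20.0 per the labels, which name another genome build). The authors deposited raw counts per cluster (all reads, unique reads, T-to-C reads, conversion locations) with its position, sequence, class and gene name, and these were used. Every cluster had at least 5 reads. The deposited fraction and mode score columns (shares of a cluster's reads, from PARalyzer) and the log10 conversion specificity deposited by the authors entered no comparison.

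Reads were scaled to 1000000 reads in clusters (RPM). Shares have Wilson intervals, rates exact Poisson intervals, and ratios exact conditional (Clopper-Pearson) intervals, all at 95%. Fold calls used genes with at least 100 reads in both libraries together and a pseudocount of 1 read. They were tested on counts simulated for the nuclear comparison with Poisson error only, without copied reads or differences between replicate libraries. There they recovered 200 of 200 genes lowered 4-fold and called 1 of 7147 unchanged genes. The lowered genes had at least 200 reads, and the result gives no rate of false calls in these data. Gene spans came from GENCODE 44 on GRCh37, which matched 11678 of 13388 gene names of the parental cytoplasmic library (87.2%). FAM155A was matched to NALF1 as a RefSeq synonym and RP11-115J23.1 to LINC02742 by coordinates.

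The named genes were the 3 genes, their neighbours by cluster number, the NALCN complex, the EDIL3 family and integrins, overlapping genes, the 3 genes with the most similar profile, and line markers. The genes and lists were chosen with earlier results of these data known. Alternatives were a minimum of 10 reads or 2 conversion locations, unique reads, median-of-ratios size factors, cluster numbers, other overlaps and leaving out the largest cluster. Scaling to intronic reads and leaving out the largest clusters from the totals were added after the data were seen. Python 3.11.15, numpy 2.4.6, pandas 2.3.3, scipy 1.17.1 and matplotlib 3.10.9 were used.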

Additional observations from a re-analysis of the deposited data

Results flagged for a closer look

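For 5 of the 9 genes of the lists with at least 100 reads in each fraction, the ratio of KRT19 KO to parental RPM was on opposite sides of 1 in the 2 fractions, beside 38.6% of all 6370 such genes. UNC79 (0.788 in the cytoplasm and 1.34 in the nucleus) and ITGB3 (0.687 and 3.96) were also on opposite sides but had fewer reads than this in 1 or both fractions. With 1 library per condition the difference between the fractions was not tested. MFGE8, the EDIL3 relative, had a ratio of 0.123 in the cytoplasm (167 and 23 reads in parental and KRT19 KO cells) and 3.18 in the nucleus (27 and 79 reads). VIM, the mesenchymal intermediate filament gene, had 1.22 and 0.449. AXL, a receptor tyrosine kinase gene, had 1.41 and 0.587. CD44, a hyaluronan receptor gene, had 0.970 (0.914 to 1.03) and 1.32, and NALCN had 1.09 (0.737 to 1.60) and 0.816 (0.596 to 1.11). The counting intervals of CD44 in the cytoplasm and of NALCN in both fractions thus include 1. For AXL and CD44 the opposite directions depended on the scale. With intronic clusters scaled to intronic reads, AXL was lower in both fractions of KRT19 KO cells. It had 146 and 110 scaled reads in parental and KRT19 KO cytoplasm, and 651 and 302 in the nuclei. CD44 was higher in both, with 345 and 519, and 396 and 632. VIM (12.8 and 49.4, 66.0 and 34.1) and NALCN (16.1 and 41.4, 40.8 and 37.1) stayed on opposite sides. MFGE8 had no intronic reads in the parental nucleus.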

How the results depend on the processing

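No paired analysis was possible because each condition has 1 PAR-CLIP library, and replicate numbers in the labels belong to RNA-seq samples not analysed here. For the same reason no replicate could be left out. Of the first set of alternatives, 23 values stayed within the counting interval, 47 moved and 2 turned direction, and of those added after the data were seen, 7 stayed, 12 moved and 5 turned direction. Those that moved in the first set include counts of genes past a fold threshold under other settings, which have no counting interval. The cause of each change was not tested.

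Values below are ratios of KRT19 KO to parental RPM, for FAM155A, EDIL3 and RP11-115J23.1. FAM155A and EDIL3 stayed below 1 under all alternatives run. With median-of-ratios size factors the ratios were 0.373, 0.543 and 0.821 in the cytoplasm and 0.687, 0.473 and 1.04 in the nucleus. From numbers of clusters scaled to all clusters of each library they were 0.607, 0.586 and 1.05 in the cytoplasm and 0.783, 0.563 and 0.996 in the nucleus. With intronic clusters scaled to intronic reads they were 0.568, 0.461 and 1.27 in the cytoplasm and 0.708, 0.467 and 1.07 in the nucleus, and without the largest intronic cluster of each library 0.494, 0.401 and 1.11 and again 0.708, 0.467 and 1.07. That exclusion also took the ratio of nuclear to cytoplasmic intronic reads of RP11-115J23.1 in parental cells from 1.10 to 0.954. Keeping clusters with 10 or more reads, the KRT19 KO to parental ratios were 0.284, 0.439 and 0.665 in the cytoplasm, and 0.414 for EDIL3 in the nucleus. Unique reads gave 0.448 for EDIL3 in the cytoplasm, and 0.550 for FAM155A and 0.415 for EDIL3 in the nucleus. Without the largest cluster of the gene the cytoplasmic ratio of EDIL3 was 0.446 and the nuclear ratio of RP11-115J23.1 was 0.992. Totals without the 10 largest clusters gave 0.303, 0.440 and 0.666 in the cytoplasm.

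Keeping clusters with 10 or more reads, 65.5%, 63.9% and 78.0% of the parental cytoplasmic clusters of FAM155A, EDIL3 and RP11-115J23.1 were found in another library, and the median distance was 1816, 1385 and 870 nt. With at least 2 conversion locations the shares were 75.1%, 65.8% and 81.1%, and with edges within 50 nt counted as shared 55.8% in EDIL3 and 77.4% in RP11-115J23.1. The T-to-C share of the 3 genes with at least 10 reads was 56.1%, 55.2%, 64.4% and 68.6% in the 4 libraries, and without the largest cluster of each gene 61.4%, 60.9% and 67.8% in the first 3. The motif share with at least 10 reads was 25.8% in parental cytoplasm and 26.4% in parental nucleus. With a minimum of 500 reads 579 genes were past 2-fold lower and 712 higher in the cytoplasm, and 279 and 154 in the nucleus. Past 4-fold were 526 lower and 521 higher in the cytoplasm, and 298 and 216 in the nucleus.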

Other observations

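Among the 519 genes with at least 200 clusters over the 4 libraries, those with the most similar profile of log2 RPM (pseudocount 1, each gene centred on its own mean) were PAN3, SMURF1 and EFNA5 for FAM155A, at Euclidean distances of 0.13, 0.14 and 0.16 against a median of 1.06 over all genes. For EDIL3 they were GULP1, GPR126 and TNPO1, at 0.42, 0.50 and 0.55 against a median of 1.74. For RP11-115J23.1 they were IL1RAPL1, SUPT3H and TENM3, at 0.08, 0.11 and 0.12 against a median of 0.71. EDIL3 was thus farther from its nearest gene than the other 2, each profile resting on 4 libraries.

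Clusters on the same strand also lay just outside the annotated spans. Within 50 kb of either end of RP11-115J23.1, 23, 21, 27 and 26 clusters without a gene name were found in the 4 libraries (parental cytoplasm, KRT19 KO cytoplasm, parental nucleus, KRT19 KO nucleus), against 14, 6, 13 and 11 around EDIL3 and 3, 2, 10 and 6 around FAM155A. Whether these belong to longer transcripts of the genes was not tested.

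The ratio of nuclear to cytoplasmic RPM for EDIL3 was 0.709 (95% interval 0.686 to 0.731) in the parental line and 0.669 (0.637 to 0.702) in the KRT19 KO line. It was 1.45 and 2.88 for FAM155A, and 1.74 and 2.39 for RP11-115J23.1. For intronic clusters scaled to intronic reads, EDIL3 stayed below 1 in both lines, at 0.879 and 0.890. FAM155A was below 1 in the parental line (0.922) and above it in the KRT19 KO line (95% interval 1.09 to 1.21). RP11-115J23.1 was above 1 in the parental line (1.10) and below it in the KRT19 KO line (0.928). Without the largest intronic cluster of each library, an alternative chosen after seeing the data, the parental ratios were 0.762 for EDIL3, 0.800 for FAM155A and 0.954 for RP11-115J23.1, so that RP11-115J23.1 was then below 1 in both lines.

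A deposited fraction named for a G at the end of reads, whose definition is not given in the sources used here, averaged 0.483, 0.477, 0.447 and 0.426 over plus-strand clusters of all genes in the 4 libraries but 0.0229, 0.0214, 0.0313 and 0.0211 over minus-strand ones, the strand of FAM155A and EDIL3. It was used for no other value.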
